A study of Nicotiana tabacum with 9 samples.

Results

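In leaves of the cigar tobacco variety H382, the transcripts of a subtilisin-like protease, of 2 genes named for stress responses and of a gene for a TLD domain protein were far lower in the brightest light than in the dimmest. The 4 genes were chosen from a table of 123 genes because their log2 changes from 50 to 200 µmol m-2 s-1 were among the largest falls in it, so their differences between those 2 light intensities are given as a description, without a test. They are named in the deposited table as subtilisin-like protease SBT1.9 (Nitab4.5_0002388g0020), TLD domain-containing protein 1 (Nitab4.5_0001988g0020, here TLD1), CSC1-like protein ERD4 (Nitab4.5_0000315g0120) and stress-induced protein KIN2-like (Nitab4.5_0003384g0010). All 4 were found, and each passed the filter on low counts.

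Plants of Nicotiana tabacum, an allotetraploid, were grown to the seedling stage at a light intensity of 50, 100 or 200 µmol m-2 s-1, called light 50, light 100 and light 200 from here on, and leaf RNA was sequenced from 3 biological replicates per intensity, 9 libraries in all. The cultivar, tissue and stage were the same in the 3 groups, and the labels give light intensity as their one difference. The libraries held 12395758 to 16603534 reads, and the 4 genes had 46 to 3409 reads per library. Whether a replicate was 1 plant or a pool is not stated in the sources used here. The table is itself a choice of changed genes: the authors' deposited table marks 64 of its 123 as lower and 58 as higher at light 200 than at light 50.

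Subtilisin-like proteases, or subtilases, are serine proteases that plant cells mostly secrete into the cell wall space, where they cut other proteins. The TLD domain is shared by animal and yeast proteins linked to resistance against oxidative damage. ERD4 was first found in Arabidopsis as a gene responding early to dehydration, and it belongs to the family of CSC1, an Arabidopsis calcium-permeable channel that opens under hyperosmotic stress. KIN2 is a small hydrophilic Arabidopsis protein whose transcript accumulates in the cold and after abscisic acid treatment.

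SBT1.9 lies on chromosome Nt22, from 90722090 to 90724390 on the plus strand, in the coordinates of the table. The sources used here do not give its genome build. Its counted length of 2301 bases equals its span, so the gene model has no intron. TLD1 is on Nt12, from 117120265 to 117126432, with a counted length of 1473 bases. ERD4 is on Nt15, from 92649958 to 92656772, with a counted length of 2172 bases. KIN2-like is on Nt22, from 104132874 to 104134219, and has the shortest counted length of the 4, 243 bases. The names differ in strength. That of TLD1 rests on a zebrafish protein with an E-value of 1.81e-06 in the authors' deposited table, which also gives its tomato match as uncharacterized. KIN2-like has a tomato match and no Swiss-Prot match there, whereas the Arabidopsis match of SBT1.9 had an E-value of 7.06e-165.

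Levels are given as CPM, read counts scaled to a common library size with the authors' size factors. SBT1.9 had 85.3, 68.0 and 60.9 CPM in the light 50 libraries (replicates 1, 2 and 3). The light 100 libraries had 41.2, 39.6 and 33.9 CPM at light 100. Its light 200 values were 12.6, 8.30 and 5.31 CPM. The 3 groups did not overlap, and each doubling of light brought every library of this protease gene below all those of the dimmer group. The means were 71.4 ± 12.5, 38.2 ± 3.83 and 8.72 ± 3.65 CPM (SD, n = 3 each). At light 200 it was 8.19-fold lower than at light 50, a log2 change of -3.03 ± 0.27 (SE), of which -0.90 ± 0.25 belonged to light 100 against light 50 and -2.13 ± 0.26 to light 200 against light 100. In these bulk leaf samples, fewer cells that express a gene and less RNA per cell cannot be told apart.

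TLD1, whose domain is known from oxidation resistance proteins, had 195, 189.9 and 121 CPM at light 50. It had 57.6, 29.6 and 52.9 CPM at light 100. The light 200 libraries had 25.9, 30.5 and 30.3 CPM. Every light 50 library was above all others, while light 100 replicate 2 lay within the range of the light 200 libraries. The means were 169 ± 41.4, 46.7 ± 15.0 and 28.9 ± 2.60 CPM (SD, n = 3 each). The log2 change was -1.85 ± 0.25 (SE) for light 100 against light 50 and -0.69 ± 0.25 for light 200 against light 100. At light 200 this gene was 5.84-fold lower than at light 50.

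ERD4, the dehydration-named gene of the calcium-channel family, had 175, 229.6 and 131 CPM at light 50. It had 74.3, 32.1 and 62.5 CPM at light 100. At light 200 it had 21.2, 24.6 and 57.0 CPM. The light 50 libraries again stood above all others, but the other 2 groups overlapped, since light 100 replicate 2 was low and light 200 replicate 3 was high. The means were 178 ± 49.4, 56.3 ± 21.8 and 34.3 ± 19.8 CPM (SD, n = 3 each). The log2 change was -1.66 ± 0.38 (SE) for light 100 against light 50 and -0.72 ± 0.38 for light 200 against light 100. Without light 200 replicate 3 the second of these was -1.30.

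KIN2-like, named after the cold-induced Arabidopsis gene, had 14.6, 18.1 and 22.7 CPM at light 50. It had 4.20, 15.5 and 4.67 CPM at light 100. The light 200 values were 2.95, 6.07 and 2.85 CPM. Light 100 replicate 2 was within the light 50 range, whereas the other 2 light 100 libraries lay below every light 50 library and within the light 200 range. The means were 18.5 ± 4.06, 8.11 ± 6.38 and 3.96 ± 1.83 CPM (SD, n = 3 each). The log2 change was -1.20 ± 0.44 (SE) for light 100 against light 50 and -1.03 ± 0.47 for light 200 against light 100. Without light 100 replicate 2 these were -2.06 and -0.17, so that single library set how the fall of KIN2-like was divided between the 2 doublings.

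**Figure D1:**
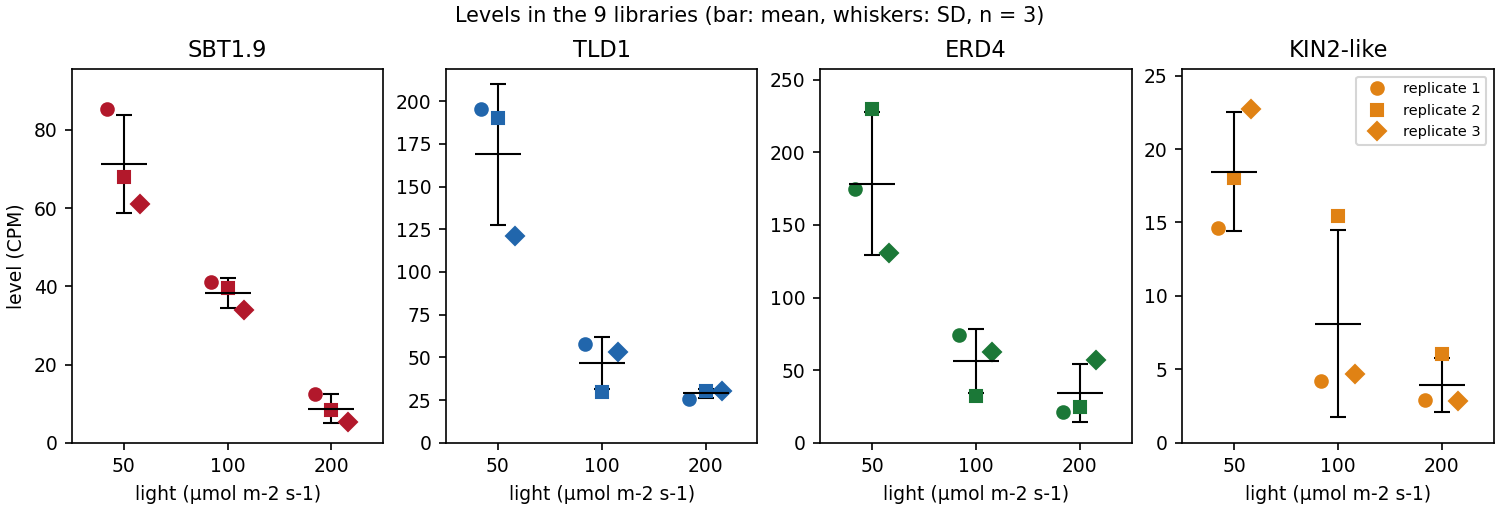
Level in CPM (vertical axes, each from 0) of the 4 genes in each library at the 3 light intensities (horizontal axes, µmol m-2 s-1), with one marker shape per replicate number, a bar for the mean and whiskers for the SD of 3 libraries. SBT1.9 falls without overlap between any 2 groups, TLD1 and ERD4 stand apart at light 50, and 1 light 100 library of KIN2-like, at 15.5 CPM, sits among those of light 50.

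The libraries of the brighter group all lay below those of the dimmer group for 4 of the 4 genes between light 200 and light 50, against 52.0% of the 123 genes. The genes were chosen on that contrast, so nothing is read from this count. Between light 100 and light 50 the same held for 3 of the 4, all but KIN2-like, against 43.1% of the table. Between light 200 and light 100 it held for SBT1.9 alone, against 41.5% of the table. SBT1.9 was thus the 1 gene of the 4 that held at both doublings, against 35.0% of the table. Both pairs share libraries with the contrast behind the choice, and their changes add up to it. By edgeR's quasi-likelihood test, 40.7% of the 123 genes were called lower at light 100 than at light 50 and 39.0% at light 200 than at light 100. Those shares depend on the scaling of the libraries. The authors' factors gave 52 higher and 50 lower calls in the first pair and 26 and 48 in the second. TMM, which takes most listed genes as unchanged, gave 58 and 13 in the first and 43 and 36 in the second, and RLE gave 45 and 17 in the second. Library totals gave 42 and 42 in the second. Median centring gave 56 and 19 in the first and 51 and 9 in the second. In the authors' deposited table, SBT1.9, TLD1 and ERD4 are marked as lower at light 100 than at light 50, as are 12.2% of its genes, and SBT1.9 is marked as lower at light 200 than at light 100, as are 20.3%.

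The smallest change among the 4 was that of KIN2-like, -2.23 ± 0.47 (SE), which ranked 5 among the falls from light 50 to light 200. Just outside the choice, thiosulfate sulfurtransferase 16 (Nitab4.5_0001696g0140), a sulfur-transferring enzyme named as chloroplastic, ranked 4 with -2.28 ± 0.48. The gene Nitab4.5_0000527g0200, listed as uncharacterized, ranked 6 with -2.18 ± 0.17. Chlorophyll a-b binding protein 16 (Nitab4.5_0000982g0200), an antenna protein, ranked 7 with -2.0 ± 0.16. The median of all 123 genes was -0.58.

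Lengths matter when genes are set beside each other, so the authors' FPKM values (fragments per kilobase of gene and per library size) were used for that. At light 50, TLD1 averaged 109 ± 25.04 FPKM, ERD4 78.1 ± 22.1, KIN2-like 72.5 ± 17.8 and SBT1.9 29.4 ± 4.21 (SD, n = 3 each). The first 3 overlapped in their libraries, while every library of SBT1.9 was lower than every library of the others. At light 200, TLD1 averaged 20.7 ± 2.20 FPKM, KIN2-like 17.1 ± 7.67, ERD4 16.8 ± 10.2 and SBT1.9 3.98 ± 1.59. SBT1.9 was thus the lowest of the 4 per length at both ends of the light range, and the order of the other 3 was within the spread between libraries. At light 100, SBT1.9 averaged 16.6 ± 1.75 FPKM, ERD4 25.9 ± 10.2, TLD1 31.7 ± 10.4 and KIN2-like 33.1 ± 25.8. There the libraries of SBT1.9 overlapped those of ERD4 and KIN2-like.

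The shape over the 3 intensities was tested as the step difference, the log2 change from light 100 to light 200 minus that from light 50 to light 100. With equal group sizes this is uncorrelated with the change from light 50 to light 200 only if the spread at light 50 equals that at light 200. From the SDs of log2 CPM over 3 libraries each, the correlation between the 2 measures came to 0.66 for SBT1.9, -0.29 for TLD1, 0.32 for ERD4 and 0.18 for KIN2-like. The step differences are thus not independent of the choice of genes, least so that of SBT1.9, and the signs found for SBT1.9 and TLD1 are those that a choice of large falls favours. A negative value in a falling gene means a larger fall in the second doubling. SBT1.9 had a step difference of -1.23, with a 95% interval from -2.15 to -0.31 (adjusted p = 0.142, by the quasi-likelihood test of edgeR, Benjamini-Hochberg adjusted over the 123 genes). TLD1 had the opposite sign, 1.16, with an interval from 0.22 to 2.10 (adjusted p = 0.150, edgeR). ERD4 had 0.95, with an interval from -0.49 to 2.39 (adjusted p = 0.515, edgeR). KIN2-like had 0.17, with the widest interval, from -1.56 to 1.89 (adjusted p = 0.927, edgeR).

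None of the 4 step differences was called by edgeR, against 2.44% of the table. DESeq2 also called 0 of the 4, against 9 of 123 genes. At an unadjusted p under 0.05 edgeR counted 2 of the 4, SBT1.9 and TLD1, against 15.4% of the table, and DESeq2 counted 2, against 19 of 123 genes. The call for SBT1.9 depended on the processing and was made in 3 of the alternatives, among them TMM scaling (step difference -1.40, adjusted p = 0.0277, edgeR) and the fit without light 200 replicate 1 (-1.59, adjusted p = 0.0240, edgeR). Over all alternatives its adjusted p lay between 0.0240 and 0.399. For TLD1 the step difference was 0.68 without light 100 replicate 2. For ERD4, leaving out light 100 replicate 2 gave 0.39 and leaving out light 200 replicate 3 gave 0.36. For KIN2-like it was 1.88 without light 100 replicate 2 and negative in 4 of the 9 fits without 1 library.

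TLD1 and ERD4 had the largest and the next largest positive step differences of the 123 genes, and SBT1.9 ranked 6 from the negative end. Without light 100 replicate 2 the step differences of TLD1 and ERD4 were 0.68 and 0.39, and ranks without that library are not given here. The 3 genes called for the step difference, 1-aminocyclopropane-1-carboxylate oxidase, anthocyanin 5-aromatic acyltransferase and UDP-glycosyltransferase 86A1, were all higher at light 200 than at light 50.

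**Figure D2:**
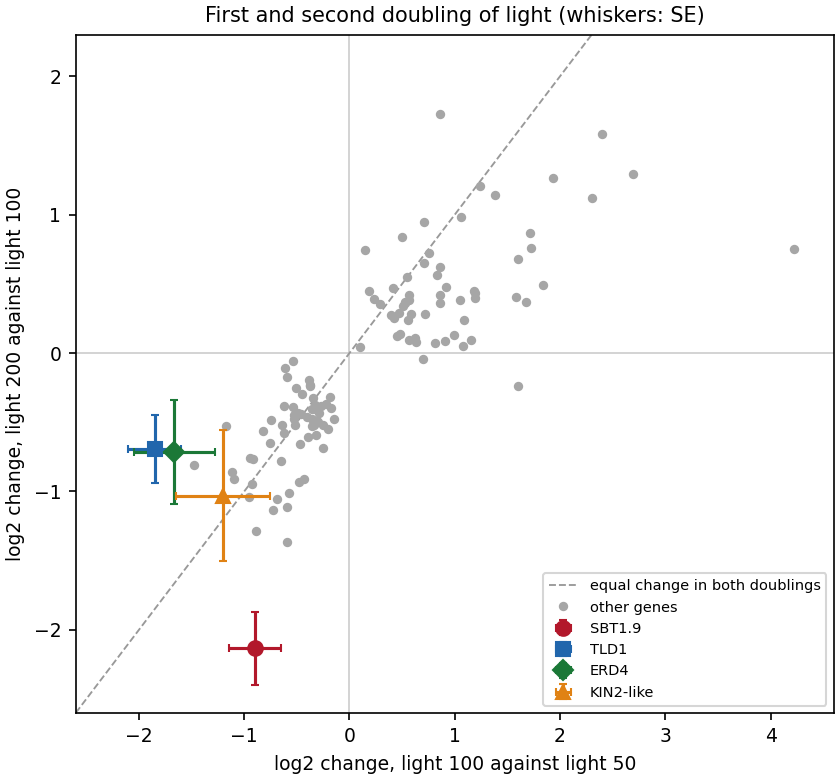
Log2 change of each of the 123 genes from light 50 to light 100 (horizontal axis) and from light 100 to light 200 (vertical axis), with the 4 genes in colour and whiskers of 1 SE; the dashed line marks equal change in both doublings. SBT1.9 lies below the line at -0.90 and -2.13, TLD1 and ERD4 lie above it, and the whiskers of KIN2-like cross it.

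The same shapes can be put as the part of the whole fall, between mean log2 levels, that was reached at light 100. For SBT1.9 it was 28.7%, and for TLD1, ERD4 and KIN2-like it was 74.6%, 68.8% and 62.6%. Among the 64 genes called lower at light 200 than at light 50, this part ranged from 23.7% to 89.3% with a median of 47.3%. From the lowest part upwards, SBT1.9 ranked 4 of 64 and KIN2-like, ERD4 and TLD1 ranked 56, 60 and 62. With 1 library left out the part for SBT1.9 stayed between 25.5% and 31.9%, that for TLD1 between 62.7% and 81.8%, that for ERD4 between 54.3% and 78.6%, and that for KIN2-like between 47.8% and 88.9%. Under the other scalings it lay between 22.6% and 29.3% for SBT1.9 and between 76.3% and 87.5% for TLD1. For ERD4 it then lay between 69.3% and 80.1%, and for KIN2-like between 61.7% and 73.1%.

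A ratio of read counts between 2 genes in the same library cannot be moved by any scaling of that library. SBT1.9 over TLD1 was 0.437, 0.358 and 0.503 in the light 50 libraries. It was 0.714, 1.34 and 0.641 at light 100. In the light 200 libraries it was 0.485, 0.272 and 0.175. All 3 light 100 ratios were above the 6 others, so the protease gene was high relative to TLD1 at the middle intensity. This is given as a description, since the pair was looked at with the shapes of both genes known. TLD1 over ERD4 kept between 0.532 and 1.24 over the 9 libraries, a 2.34-fold range. That was the narrowest of the 6 pairs among the 4 genes, whose other ranges lay between 7.17-fold and 13.3-fold.

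**Figure D3:**
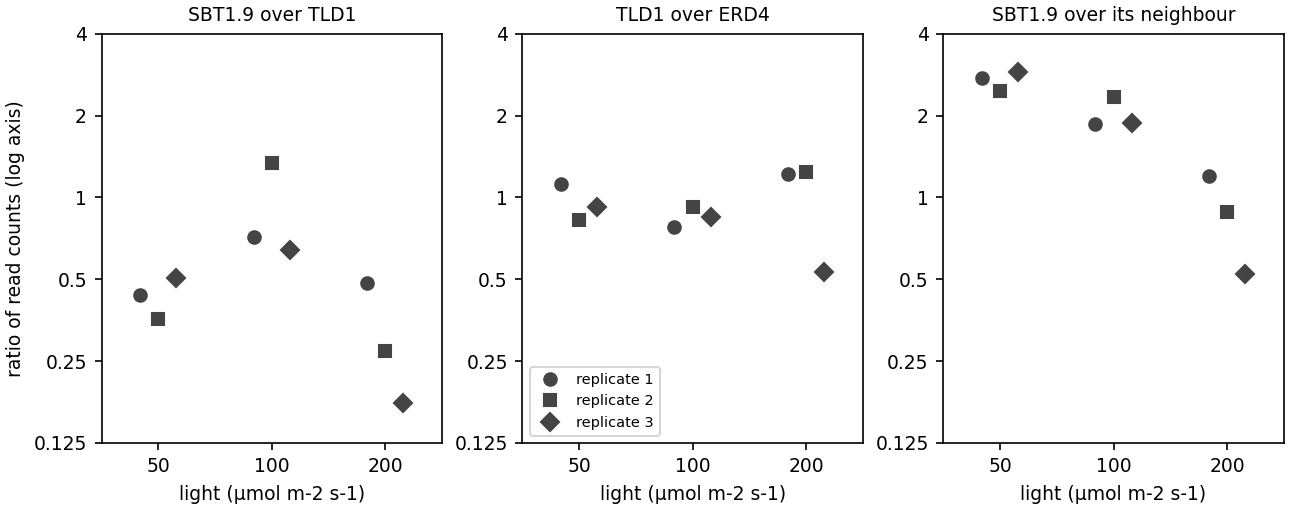
Ratio of read counts within each library (vertical axes, log scale) at the 3 light intensities for SBT1.9 over TLD1, for TLD1 over ERD4, and for SBT1.9 over the neighbouring gene of the same name. The first ratio is highest at light 100, the second stays between 0.532 and 1.24, and the third is lower at each higher intensity.

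A second gene with the same best match, Nitab4.5_0002388g0010, lies 31180 bases away on Nt22, from 90755571 to 90757916 on the minus strand. Where the 2 copies are alike, reads cannot be assigned to one of them with certainty, so the values of both are uncertain. The neighbour averaged 26.5 ± 4.97, 19.04 ± 2.71 and 9.995 ± 0.553 CPM at light 50, 100 and 200 (SD, n = 3 each). Its log2 change for light 200 against light 50 was -1.41 ± 0.19 (SE), smaller than that of SBT1.9 itself. The read ratio of SBT1.9 over this neighbour was 2.76, 2.47 and 2.89 at light 50. It was 1.86, 2.34 and 1.88 at light 100. In the light 200 libraries it was 1.20, 0.885 and 0.522. The 3 groups of ratios did not overlap, and SBT1.9 had the fewer reads of the pair in 2 of the 3 light 200 libraries. SBT1.9 was chosen for its fall, the largest of the table from light 50 to light 200. A smaller fall of the neighbour and a lower ratio at light 200 than at light 50 thus follow from the choice. The same ratio over the other listed genes is not given here, so these values are a description. The neighbour of SBT1.9 had a step difference of -0.45 ± 0.32 (SE; adjusted p = 0.515, edgeR) and had reached 33.7% of its fall at light 100.

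The spread between libraries was large for all 4 genes. The SD of log2 CPM within groups, pooled over the 3 groups, was 0.72 for KIN2-like, 0.62 for ERD4, 0.40 for SBT1.9 and 0.38 for TLD1, against a median of 0.20 over the 123 genes. From the largest spread downwards these ranked 2, 4, 12 and 14. A choice of the largest log2 falls favours genes with a wide spread, so these ranks are a description. KIN2-like had the fewest reads, from 46 to 329 per library, and counting error alone would give an SD of 0.09, 0.15 and 0.19 at light 50, 100 and 200. Its observed SDs were 0.32, 1.05 and 0.62. For ERD4, counting error would give at most 0.07, against observed SDs of 0.40, 0.64 and 0.77.

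The spread also changed place between genes. SBT1.9 was tight at light 100, where its SD of 0.15 was below the table's median of 0.17, and wide at light 200, where its SD of 0.62 ranked 4 of 123. TLD1 had the reverse, with an SD of 0.52 at light 100, which ranked 5, and of 0.13 at light 200, which ranked 90. KIN2-like had the largest SD of all 123 genes at light 100, and ERD4 ranked 2 both there and at light 200.

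**Figure D4:**
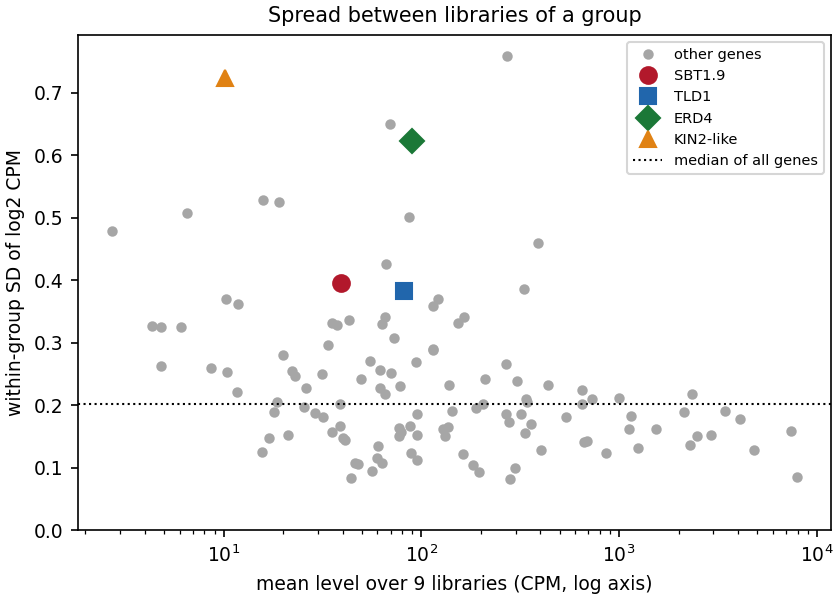
Within-group SD of log2 CPM, pooled over the 3 light groups (vertical axis), against mean level over the 9 libraries (horizontal axis, CPM on a log scale) for the 123 genes, with the dotted line at their median of 0.20. All 4 genes lie above the line, KIN2-like at 0.72 and ERD4 at 0.62.

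Within a light group, TLD1 and ERD4 mostly deviated from their means together, and KIN2-like mostly deviated the other way. TLD1 and ERD4 were on the same side of their group means in 8 of 9 libraries. KIN2-like and ERD4 were on opposite sides in 8 of 9, and KIN2-like and TLD1 in 7 of 9. SBT1.9 shared its side with TLD1 in 4, with ERD4 in 3 and with KIN2-like in 5. Some sides were near 0: ERD4 was at 0.007 in light 50 replicate 1 and KIN2-like at -0.009 in light 50 replicate 2. Whole libraries also shifted, with median deviations from -0.15 to 0.14, and the same counts over all pairs of genes are not given here. Deviations within a group add to 0, so the 9 are not independent, and these counts carry no test.

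ERD4 and TLD1 lay furthest from KIN2-like in light 100 replicate 2. There ERD4 and TLD1, with log2 deviations of -0.72 and -0.60, were the lowest of all 123 genes relative to their group means, and KIN2-like, with 1.20, was the highest. In read counts, ERD4 had 436 reads in that library, against 1116 and 1030 in the other 2 of its group, and KIN2-like had 210 against 63 and 77. SBT1.9 deviated by 0.06 there. Over the whole table this library had a root mean square deviation of 0.24, in a range from 0.15 to 0.28 over the 9 libraries. That was the largest of its light group, where replicates 1 and 3 had 0.21 and 0.15. The part of any feature of that library in these values was not tested.

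At light 200 the members separated again. ERD4 was high in replicate 3, by 0.88, where SBT1.9 was the lowest of all genes, by -0.63. Over the whole table, light 200 replicate 3 had the largest root mean square deviation of all libraries, 0.28. Its median deviation of -0.15 was also the lowest, against 0.08 in light 200 replicates 1 and 2. The part of this shift in the values of the 4 genes was not tested. SBT1.9 was the highest of all genes in light 200 replicate 1, by 0.61, where ERD4 was at -0.55. KIN2-like was the highest gene of light 200 replicate 2, by 0.71, and TLD1 lay between -0.15 and 0.08 in all 3.

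**Figure D5:**
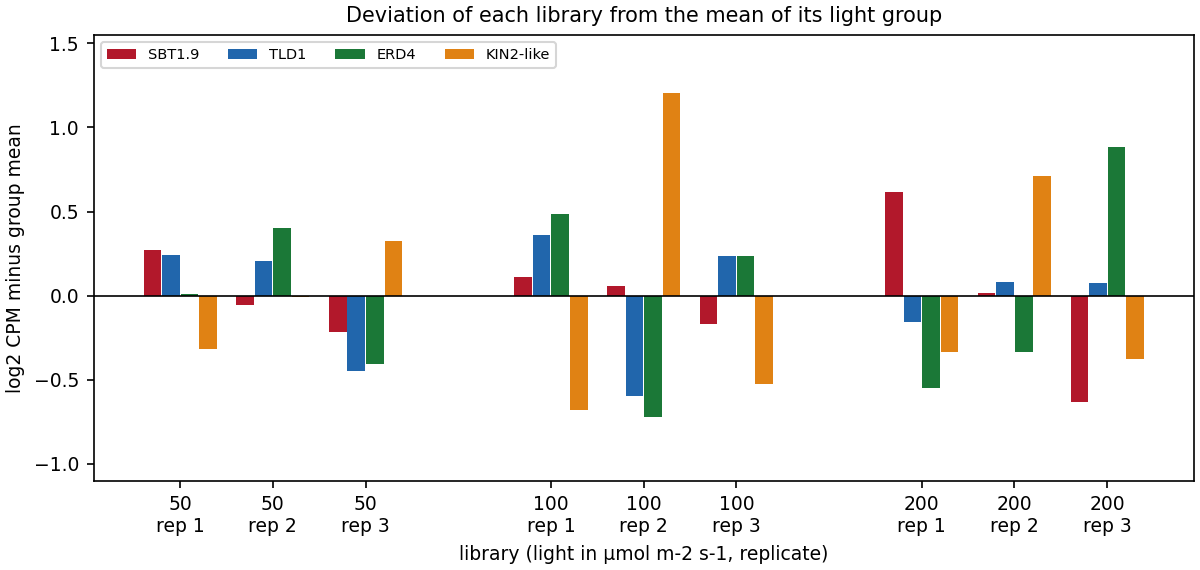
Deviation of log2 CPM from the mean of the light group (vertical axis) for the 4 genes in each of the 9 libraries (horizontal axis, light intensity and replicate). In light 100 replicate 2, ERD4 and TLD1 reach -0.72 and -0.60 and KIN2-like reaches 1.20.

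The genes most like each of the 4 were taken as those with the smallest root mean square difference in log2(CPM + 0.5), each gene centred on its own mean over the 9 libraries. TLD1 and ERD4 were each other's nearest gene, at 0.35, against a median distance of 0.94 from TLD1 and 1.02 from ERD4 to the other 122 genes. After ERD4, the nearest to TLD1 were the tubulin beta-1 chain (Nitab4.5_0001951g0080), a subunit of microtubules, at 0.42, and polygalacturonase inhibitor (Nitab4.5_0005395g0010), which inhibits pectin-cutting enzymes of pathogens, at 0.46. After TLD1, the nearest to ERD4 were thiosulfate sulfurtransferase 16 at 0.36 and the same polygalacturonase inhibitor at 0.44.

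Thiosulfate sulfurtransferase 16 was on the same side of its group mean as ERD4 in 9 of 9 libraries. This gene was picked as near to ERD4 over the same libraries. Such agreement thus follows in part from the pick and carries no test. It had 722, 514 and 322 CPM at light 50. It had 192, 138 and 229 CPM at light 100. At light 200 it had 46.7, 67.1 and 206 CPM, with replicate 3 high as for ERD4. Its pooled SD of 0.76 was the largest of the 123 genes.

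SBT1.9 had no gene as near. Its nearest were the uncharacterized Nitab4.5_0000527g0200 at 0.60, beta-xylosidase/alpha-L-arabinofuranosidase 2 (Nitab4.5_0003089g0010), a cell wall sugar hydrolase, at 0.63, and the peptidyl-prolyl isomerase FKBP17-2 (Nitab4.5_0008639g0010), of the enzymes that turn proline bonds in proteins, at 0.63. TLD1, the nearest of the other 3, ranked 12. KIN2-like was nearest to chlorophyll a-b binding protein 16 at 0.49, a protochlorophyllide reductase (Nitab4.5_0001320g0160), which makes a chlorophyll precursor, at 0.53, and another antenna gene, chlorophyll a-b binding protein P4 (gene Nitab4.5_0007189g0010), at 0.53. ERD4 ranked 62 from KIN2-like. All genes that fall from light 50 to light 200 share part of this likeness by the way the table was chosen.

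Other genes of related name were taken by words in their product names and counted without the 4 genes, whose calls on this contrast were fixed by the choice. Of 3 other proteases, 2 were called lower and 1 higher at light 200 than at light 50, where 52.0% and 47.2% of the table were called (59 higher and 31 lower genes with median centring). Their median log2 change was -0.76 against -0.58 for all genes. The lower ones were the neighbour of SBT1.9 and Protease Do-like 8 (Nitab4.5_0000274g0150), of a family that degrades damaged proteins in the thylakoid, with 8.15 ± 2.20 CPM at light 200 and 13.9 ± 1.35 at light 50 (SD, n = 3 each). It was not called with TMM or median centring (adjusted p = 0.239 and 0.454, edgeR), which leave 1 lower protease outside the 4 genes. Aspartyl protease AED3 (Nitab4.5_0003481g0010) was higher, with 142 ± 28.5 CPM at light 200 and 45.0 ± 24.9 at light 50.

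Besides ERD4 and KIN2-like, 1 gene had a stress word in its name. This gene, DRT100 (Nitab4.5_0000213g0030), named for DNA damage tolerance, had 24.0 ± 4.98 CPM at light 200 and 21.8 ± 3.99 at light 50 and was the one gene of the table not called. It was called higher with TMM, RLE and median centring, at log2 changes of 0.56, 0.44 and 0.72. Besides TLD1, which was listed by the letters TLD, 2 genes matched the words taken for oxidant defence. Both were called lower, as were 52.0% of the table. Such words do not show that a gene acts in oxidant defence. Catalase isozyme 1 (Nitab4.5_0000407g0130), which breaks down hydrogen peroxide, had a log2 change of -1.43 ± 0.16 (SE), and the thioredoxin-like CXXS1 (Nitab4.5_0002345g0090) one of -1.21 ± 0.22.

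Besides ERD4, which was chosen for its fall, 6 genes were named as channels or transporters. All 6 were called higher at light 200 than at light 50, as were 47.2% of the table, and 6 were called higher under each of the 4 other scalings. Their median log2 change was 0.95 against -0.58 for all genes. Aquaporin PIP2-1 (Nitab4.5_0000101g0120), a water channel of the plasma membrane, had 102 ± 18.3 CPM at light 200 and 54.7 ± 5.40 at light 50. Probable aquaporin PIP1-2 (Nitab4.5_0000737g0120) had 141 ± 25.3 CPM at light 200 and 50.4 ± 4.49 at light 50. None of the genes in these 4 lists was called for the step difference by edgeR. The lists are small, overlap in ERD4 and hold genes chosen as changed on these samples.

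Genes listed as markers by words in their product names moved with the light groups as well. Such names do not show that a gene is specific to a cell type, and cell types were not measured. The 20 leaf markers (antenna, photosystem, oxygen-evolving and Rubisco activase genes) were present in every library, none at 0, and all 20 were called lower at light 200 than at light 50, against 52.0% of the table. The count was 18 with TMM, 19 with RLE and 6 with median centring, where 48, 60 and 31 of the 123 genes were called lower, and 2 of the 20 were slightly higher with median centring. Their summed level was 52481 to 62224 CPM at light 50, 42970 to 48015 at light 100 and 27903 to 35204 at light 200. The single gene listed for dividing cells was the tubulin beta-1 chain that lay near TLD1. It had 79.1 to 127 CPM at light 50, 41.6 to 51.8 at light 100 and 28.6 to 38.2 at light 200. The single gene listed for trichomes, a non-specific lipid-transfer protein (Nitab4.5_0000125g0030), had 40.8 to 65.9, 24.0 to 29.96 and 13.5 to 17.7 CPM. The single gene listed for roots and nicotine, berberine bridge enzyme-like 8 (Nitab4.5_0000009g0310), had 0.606 to 1.32, 1.18 to 1.998 and 3.98 to 7.50 CPM. The part of these markers in the changes of the 4 genes was not tested.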

How the data were processed

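Per the labels' protocols, the kit for library preparation was NEBNext Ultra RNA. CASAVA 1.7, HISAT and HTSeq are named in the submitters' processing notes, without their roles. The deposited table gives the authors' raw read counts, FPKM values, mean normalised counts per group within each pair (a score, scaled within the pair), log2 fold changes and p-values, per the file headers. Their log2 values put the dimmer group on top and are not used here for sizes. Library totals, recovered from count, FPKM and length, were 12395758 to 16603534 reads, of which the 123 genes held 4.63% to 7.37%. The authors' size factors were recovered from the mean normalised counts and, after 1 overall shift per pair (8.79% between the furthest pairs), differed between pairs by at most 0.188%.

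The counts of the 9 libraries went into a quasi-likelihood fit (glmQLFit, then glmQLFTest, two-sided; edgeR 4.0.16 under R 4.3.3) that had 1 term per light group. filterByExpr kept all 123 genes, and calls are at an adjusted p under 0.05 over 123 genes. CPM is on the scaled library sizes, and intervals use the fit's degrees of freedom at 95%. Alternatives were DESeq2 1.42.0, TMM, RLE, library totals, median centring, no filter, a replicate block and leaving out each library. TMM and RLE were not made the main scaling because nearly all listed genes were chosen as changed. The step-difference test was run on simulated counts with step differences larger than those of the chosen genes and the same spread in every light group. That run does not cover the smaller step differences and unequal spread found here.

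The step difference is not fully independent of the choice of members, because spread differed between light 200 and light 50. The members and lists were chosen with earlier results of these data known. Named genes are the 4 members, the neighbours in rank (4, 6 and 7), the 3 nearest genes of each, the listed genes and genes called for the step difference. Peptidyl-prolyl isomerases and kinases, which matched list words by their letters alone, were left out of the lists after the matches were seen. Replicates differed beyond counting noise, with chi-square over its degrees of freedom from 23.6 to 102.4 in 9 pairs. The labels call them biological replicates without naming separate plants, so p-values measure the spread between these samples. The kit is not stated to keep strand, so overlapping and antisense genes cannot be told apart. The reference gene table matched 0 of the 123 identifiers, so no sequences are shown.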

Additional observations from a re-analysis of the deposited data

How the results depend on the processing

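The log2 changes of the 4 genes between each pair of light groups stayed negative under every alternative run. The genes were chosen for falling from light 50 to light 200, and the changes over the doublings add up to that fall. Their negative sign is thus favoured by the choice and is not read as support. The step difference stayed negative for SBT1.9 and positive for TLD1 and ERD4. For light 200 against light 50, the whole table's median log2 change was higher by 0.43 with TMM, 0.29 with RLE, 0.15 with library totals and 0.58 with median centring than with the authors' factors. For that comparison SBT1.9 had -2.62 with TMM and -2.45 with median centring, and TLD1 had -2.10 and -1.97. For light 200 against light 100, median centring gave -1.74 for SBT1.9 and -0.30 for TLD1.

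The step difference of SBT1.9 was called with TMM (-1.40, adjusted p = 0.0277, edgeR), with the replicate block (-1.31, adjusted p = 0.0464, edgeR) and without light 200 replicate 1 (-1.59, adjusted p = 0.0240, edgeR), and ran from -1.59 to -0.97 with 1 library left out. That of KIN2-like ran from -0.46 to 1.88, with negative values of -0.0073, -0.46, -0.40 and -0.27 without light 50 replicate 3, light 100 replicate 1, light 100 replicate 3 and light 200 replicate 2. Without 1 library its log2 change ran from -2.06 to -0.89 for light 100 against light 50 and from -1.47 to -0.17 for light 200 against light 100.

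The 3 genes called for the step difference became 23 with TMM, 5 with library totals, 1 with median centring, 9 with DESeq2 and 6 with the replicate block. With 1 library left out there were 1 to 14: 14 without light 50 replicate 1, 5 without light 100 replicate 3, and 1 when light 100 replicate 2 or light 200 replicate 2 was missing. With median centring 31 genes were called lower for light 200 against light 50 (64 as reported). For light 100 against light 50 the number lower (50 as reported) was 13 with TMM, 19 with median centring and 29 to 55 with 1 library left out, with 29 without light 50 replicate 1 and 31 without light 100 replicate 1. For light 200 against light 100 (48 as reported) it was 17 with RLE, 9 with median centring and 27 to 50 with 1 library left out, with 27 without light 100 replicate 3 and 31 without light 200 replicate 1. The cause of these changes was not tested.

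The replicate numbers are not shown to pair the libraries. Deviations of same-numbered libraries correlated across genes between -0.44 and 0.55 over 9 pairs, and a library was nearest to its own number in 6 of 18 comparisons. KIN2-like, with 46 reads in its lowest library, is the member most limited by depth.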

Other observations

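Light 100 replicate 2, in which ERD4 and TLD1 were the lowest genes and KIN2-like the highest, held other genes away from its group as well, named after their values were seen. UDP-glycosyltransferase 86A1 (Nitab4.5_0003524g0010), of the enzymes that attach sugars to small molecules, was 0.52 above its group mean on the log2 scale, with 325 reads against 199 and 242 in the other 2 libraries. Aquaporin PIP2-1, a water channel, was 0.45 above, with 1096 reads against 668 and 941. Epidermis-specific secreted glycoprotein EP1 (Nitab4.5_0000246g0290) was 0.46 below, with 53 reads against 92 and 107. Each of these was nearer its group mean than ERD4, TLD1 and KIN2-like were.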
